A study of Mus musculus with 20 samples.

Results

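The spots described here are 82 of the 9600 spots on the MA10 array whose signal in mouse lung was higher after thoracic radiation, both in mice fed flaxseed and in mice not fed it. They were chosen on the authors' table values, in which 1 is the signal of the median spot of an array, after adding 0.6 and taking log2. A spot was a member when its mean with flaxseed and radiation exceeded its mean with flaxseed alone by more than 0.5, and its mean with radiation alone exceeded its untreated mean by more than 0.5. Of all spots, 861 met the first condition and 145 the second. The higher level after radiation is thus what chose the spots, and its values below are a description with no test.

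The study used 20 mice of the inbred strain C57BL/6, with the lung of each on 1 array, in 4 groups of 5. The groups were 10% flaxseed in the diet for 21 days plus 13.5 Gy to the chest, radiation alone, flaxseed alone, and no treatment. Irradiated mice were killed 48 hours after the dose. The sources used here do not give age, sex, the diet of mice without flaxseed or any sham irradiation. RNA came from whole lung, in which more cells of a type and more RNA per cell cannot be told apart.

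As background, ionising radiation breaks DNA, which activates damage signalling through the p53 protein, arrests the cell cycle and kills sensitive cells, and the irradiated lung can later become inflamed and scarred. Flaxseed is rich in lignans and in an omega-3 fatty acid, and has been studied as a dietary protectant of irradiated lung. The tables used here do not pair spots with genes. No gene, pathway, sequence or lung marker could therefore be read, and members are called by spot number.

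Median signal per array was 75.3 to 125.79 scanner units, median local background was 15.02 to 23.81, and the median ratio of signal to background was 4.65 to 6.53. In the authors' table, 18 of 20 columns match their own array, and the other two, radiation replicates 4 and 5, are exchanged. Both lie in 1 group, so no group mean is affected. Nothing in the labels says how the mice were housed or processed, so p-values measure the spread between these samples only.

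The members were mostly bright spots. Of the 82, 67 (81.7%) were among the 1920 brightest spots of the array and 43 among the 960 brightest. Those 1920 also held 622 of the 861 spots that met the condition on flaxseed, and 103 of the 145 that met the other. The constant of 0.6 shrinks changes of dim spots, so the rule favours bright ones. The median member had a mean table value of 10.2, and the median of all spots was 1.055. None of the members' 1640 values was under 0 or at 0.002, the value at which 6342 of the 192000 values in the whole table stand. A value of 0.002 does not always mean a dim spot. The scaled scanner value at such places reached 1.689 in untreated replicate 4, above the median spot. A single member, gene4987, was under 2 times its background on any array, with a lowest ratio of 1.87.

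The changes with radiation were of moderate size. On the flaxseed diet the median change was 0.82 (log2 of table value plus 0.6), with a range of 0.53 to 1.58, and 19 members exceeded 1. Without flaxseed the median was 0.58, with a range of 0.50 to 1.13, and gene8647 alone exceeded 1. Over all 9600 spots these medians were 0.004 and 0.013, and over the 1920 brightest spots 0.115 and 0.054.

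**Figure D1:**
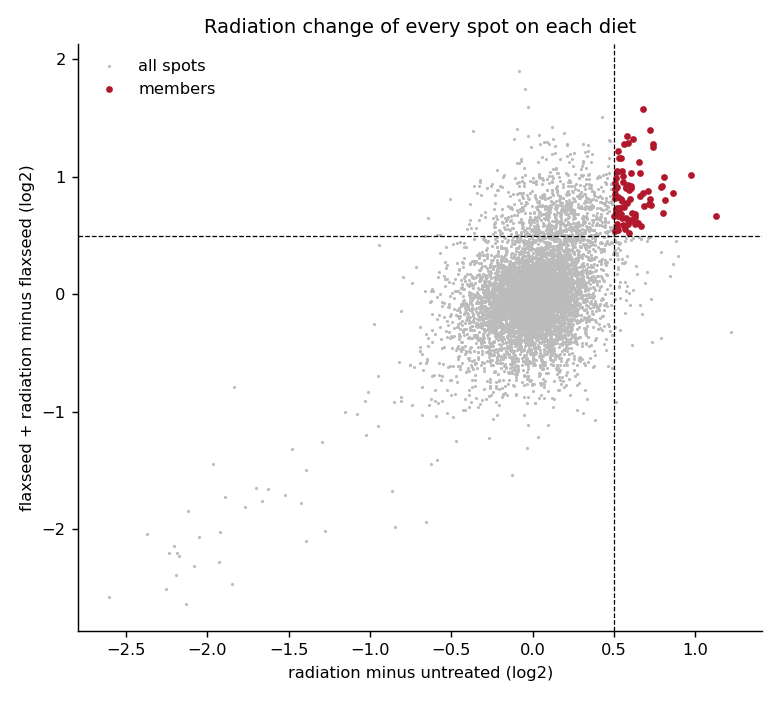
Change with radiation of all 9600 spots and of the 82 members, in log2 units of table value plus 0.6, for mice without flaxseed and for flaxseed-fed mice, with lines at the threshold of 0.5. The members range up to 1.13 without flaxseed and up to 1.58 on flaxseed, and they lie at the edge of a continuous cloud.

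The change was larger on the flaxseed diet in 71 of the 82 members, and over 1.5 times as large in 32. Among all spots, 4877 (50.8%) had the larger signed change on that diet, and among the 1920 brightest 1073 (55.9%) had it. On log2 scanner values, the scale of the limma fit described below, the change on flaxseed was larger in 64 members and smaller in 18. The median difference on that scale was 0.133, against 0.025 over the 1920 brightest spots and -0.001 over all spots. On table values it was 0.199 in the members, 0.087 over the 1920 brightest spots and 0.004 over all spots. A larger gap in brighter spots is thus not particular to the members. Among the members, too, the gap on table values went with brightness. The 11 members with a mean table value under 3 had median changes of 0.64 on flaxseed and 0.58 without it. The 30 members between 3 and 10 had medians of 0.75 and 0.60. The 31 members between 10 and 30 had medians of 0.90 and 0.57, and the 10 members above 30 had 0.91 and 0.59. In the limma fit described below, the difference between the changes on both diets was called in 0 spots at an adjusted p of 0.05. The smallest limma adjusted p of a member for this difference was 0.398. Because the rule used both changes, nothing is read from the members' gap.

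Spot gene8630 had the widest gap, with changes of 1.58 on flaxseed and 0.68 without it. It read 31.1, 7.92, 33.2, 11.5 and 27.8 (table value) with both treatments, against 3.74, 15.9, 6.79, 4.15 and 4.66 with flaxseed alone. Radiation alone gave 18.0, 17.4, 16.9, 24.7 and 9.28, against 19.7, 6.83, 8.27, 7.65 and 12.2 untreated. Both pairs of groups overlapped, and the highest flaxseed array and the highest untreated array each lie above the lowest irradiated array of their diet.

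Spot gene8647 had the widest gap the other way, with 0.67 on flaxseed and 1.13 without it. It read 8.49, 8.35, 15.0, 4.40 and 3.09 with both treatments, against 2.48, 8.61, 3.16, 2.00 and 7.65 with flaxseed alone. Radiation alone gave 11.2, 17.0, 4.77, 10.4 and 4.69, against 4.13, 1.83, 6.16, 3.43 and 3.54 untreated. Here too both pairs overlapped. Without replicate 3 of the group with both treatments, its change on flaxseed was 0.41, under the threshold of the rule.

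Ranked by the smaller of the changes on both diets, gene4285 came first, with 1.02 on flaxseed and 0.98 without it. It read 13.4, 21.4, 14.2, 19.3 and 17.4 with both treatments, against 11.4, 6.07, 9.00, 5.38 and 9.85 with flaxseed alone. Radiation alone gave 17.1, 20.2, 17.8, 24.9 and 14.2, against 12.6, 8.03, 11.5, 4.13 and 12.8 untreated. All 10 irradiated arrays lie above the 10 others.

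Spot gene7404 changed to the same extent on both diets, by 0.86 and 0.87. It read 55.9, 41.2, 44.4, 35.9 and 39.1 with both treatments, against 21.6, 23.0, 24.2, 21.7 and 26.3 with flaxseed alone. Radiation alone gave 47.6, 47.1, 40.8, 44.4 and 36.1, against 12.8, 25.3, 34.4, 28.1 and 22.0 untreated. No irradiated array overlaps an unirradiated one, and the untreated arrays spread most.

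In gene4974 1 array sets its change without flaxseed. It read 36.5, 28.9, 39.2, 50.9 and 43.0 with both treatments, against 28.4, 22.8, 16.0, 22.7 and 22.2 with flaxseed alone, with no overlap. Radiation alone gave 31.6, 48.2, 36.0, 64.1 and 41.1, against 5.47, 32.1, 37.0, 38.7 and 30.8 untreated, and these overlap. Without untreated replicate 1, the low array, its change without flaxseed was 0.31 in place of 0.82, under the threshold of the rule.

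Spot gene3935 read 8.35, 8.26, 6.15, 14.0 and 6.34 with both treatments, against 3.46, 2.59, 3.70, 5.32 and 4.62 with flaxseed alone. Radiation alone gave 8.37, 10.8, 7.46, 9.05 and 7.39, against 6.25, 3.15, 4.70, 6.04 and 3.71 untreated. Neither pair overlaps, though the highest untreated array exceeds the lowest array with both treatments.

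In gene4813, gene8043 and gene4648 both pairs of groups overlapped. Spot gene4813 averaged 18.2 ± 4.29 with both treatments and 9.63 ± 3.68 with flaxseed, and 20.5 ± 5.44 with radiation and 12.1 ± 5.66 untreated (table value, SD, n = 5 each). Spot gene8043 averaged 19.8 ± 6.07 with both treatments and 10.0 ± 2.19 with flaxseed, and 23.2 ± 7.04 with radiation and 13.7 ± 5.79 untreated. Spot gene4648 was dimmer, at 5.36 ± 2.45 with both treatments and 2.81 ± 0.816 with flaxseed, and at 5.97 ± 1.18 with radiation and 3.46 ± 1.204 untreated.

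Spot gene8115 had a tight group with both treatments, at 9.26, 10.6, 10.3, 8.43 and 10.8, against 3.79, 2.96, 3.16, 4.63 and 4.74 with flaxseed alone. Radiation alone gave 12.1, 11.8, 7.85, 9.75 and 6.82, against 5.99, 3.89, 6.09, 7.60 and 4.21 untreated. The flaxseed-fed groups are far apart and the groups without flaxseed overlap, with changes of 1.25 and 0.74.

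Spot gene3758 was the brightest member, at 288 times the median spot on average. It read 148.0, 272.0, 293.1, 751.6 and 251.8 with both treatments, against 280.3, 85.6, 159.3, 190.1 and 35.8 with flaxseed alone. Radiation alone gave 452.2, 510.6, 294.6, 462.0 and 341.2, against 211.2, 251.9, 313.2, 181.8 and 269.8 untreated. Both pairs overlapped. The flaxseed-fed groups spread most, with SDs of 0.85 and 1.15 (log2), against 0.33 with radiation and 0.31 untreated.

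Spot gene5063 completes the first 10. It read 5.34, 3.70, 2.44, 3.31 and 3.11 with both treatments, against 0.725, 0.548, 0.806, 1.21 and 1.67 with flaxseed alone. Radiation alone gave 4.63, 6.63, 6.17, 9.82 and 3.35, against 3.10, 3.44, 3.29, 4.51 and 2.28 untreated. The 5 arrays with flaxseed alone lie under all others, and arrays with both treatments overlap the untreated ones.

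**Figure D2:**
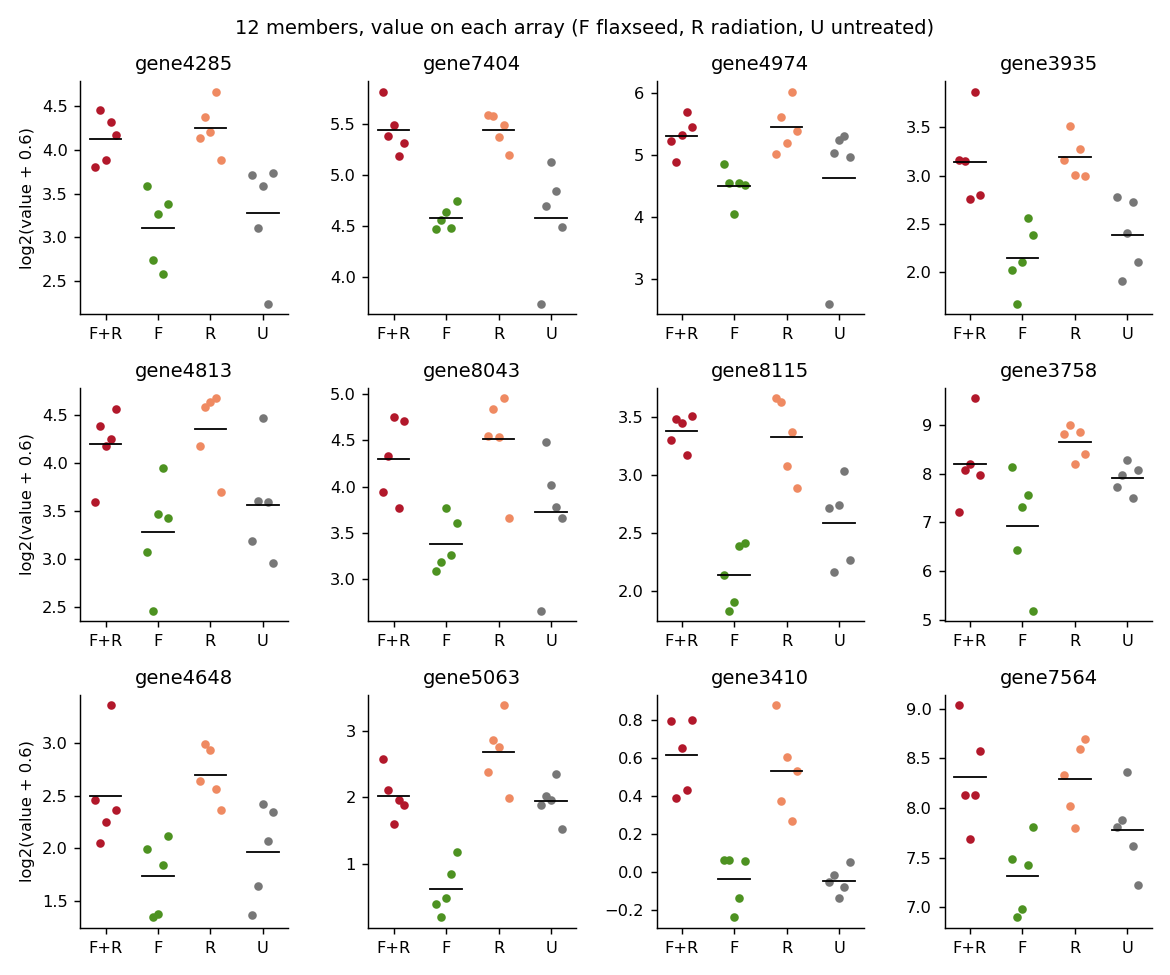
Level of single members on each array, as log2 of table value plus 0.6, with a point per array and a line at the group mean. In gene4285, gene7404 and gene3410 every irradiated array lies above every unirradiated array, and in gene4974 a single untreated array lies far under the other 4.

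The second brightest member, gene7564, read 524.0, 280.7, 206.2, 279.8 and 379.4 with both treatments, against 178.2, 118.8, 125.8, 171.6 and 223.1 with flaxseed alone. Radiation alone gave 322.7, 259.9, 222.2, 386.9 and 414.7, against 224.0, 235.4, 329.3, 195.3 and 149.3 untreated. Both pairs overlapped, with changes of 0.99 and 0.51.

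The dimmest member, gene3410, read 1.14, 0.712, 0.974, 0.749 and 1.14 with both treatments, against 0.444, 0.444, 0.248, 0.309 and 0.442 with flaxseed alone. Radiation alone gave 1.24, 0.694, 0.921, 0.605 and 0.847, against 0.366, 0.389, 0.311, 0.347 and 0.438 untreated. The irradiated arrays lie above all others, although the lowest ratio of signal to background was 2.06. Its changes of 0.65 and 0.58 are understated, since the constant of 0.6 is larger than its unirradiated values.

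Spot gene4987 averaged 0.919 ± 0.285 with both treatments and 0.449 ± 0.262 with flaxseed, and 1.201 ± 0.487 with radiation and 0.626 ± 0.105 untreated (table value, SD, n = 5 each). Its groups overlapped on flaxseed and did not overlap without it. Spots gene4308 and gene4309 follow each other in the numbering, the sole such pair among the members. The dimmer, gene4309, averaged 1.33 ± 0.656 with both treatments and 0.652 ± 0.141 with flaxseed, and 1.57 ± 0.507 with radiation and 0.847 ± 0.229 untreated. On 1 array with both treatments both spots were at their lowest of that group, gene4308 at 5.95 and gene4309 at 0.38.

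On the flaxseed diet all 5 irradiated arrays lay above all 5 unirradiated ones in 33 members, against 4.7% of all spots. Without flaxseed this held in 14 members, against 0.76% of all spots. It held on both diets in 10 members (0.188% of all spots), and in 4 members all 10 irradiated arrays lay above all 10 others (0.0833% of all spots). The rule used these arrays, so nothing is read from these counts.

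Those 4 were gene3410, gene4285, gene7404 and gene4074, of which gene4074 is named here after its values were seen. It read 25.5, 27.0, 17.2, 16.3 and 22.5 with both treatments, against 7.86, 9.77, 10.3, 7.77 and 8.44 with flaxseed alone. Radiation alone gave 17.0, 17.3, 17.6, 18.5 and 14.6, against 14.2, 11.7, 9.27, 9.55 and 14.1 untreated. No other member stood as far above radiation alone when both treatments were given, at 0.32 (log2).

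Just inside the rule were gene8138, gene7537 and gene5211, with smaller changes of 0.501, 0.504 and 0.504. Just outside were gene6020, gene6110 and gene5594, at 0.499, 0.498 and 0.494. When each of the 20 arrays was left out in turn, 20 members met the rule every time and 62 failed it at least once. Of the 10 members with the largest smaller change, 9 met it every time, the exception being gene4974. Single arrays also moved other named members by over 1.5 times. The change without flaxseed was 0.30 in gene0164 without radiation replicate 1, and without untreated replicate 1 it was 0.39 in gene8762 and 0.52 in gene8043. The change on flaxseed was 0.37 in gene4308 without flaxseed replicate 4.

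Averaged over the 82 members, arrays with both treatments stood at 3.59 ± 0.07, radiation arrays at 3.71 ± 0.22, flaxseed arrays at 2.73 ± 0.13 and untreated arrays at 3.10 ± 0.11 (log2, SD, n = 5 each). Single arrays ran from 3.50 to 3.70 with both treatments, from 3.43 to 3.98 with radiation, from 2.53 to 2.86 with flaxseed and from 2.95 to 3.22 untreated. The rule sets the gap between irradiated and unirradiated arrays. The flaxseed arrays lie under all untreated arrays, and the radiation arrays spread over the whole range of those with both treatments. Over the 1920 brightest spots the means were 3.51 ± 0.08, 3.52 ± 0.13, 3.41 ± 0.09 and 3.50 ± 0.12 in the same order of groups.

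**Figure D3:**
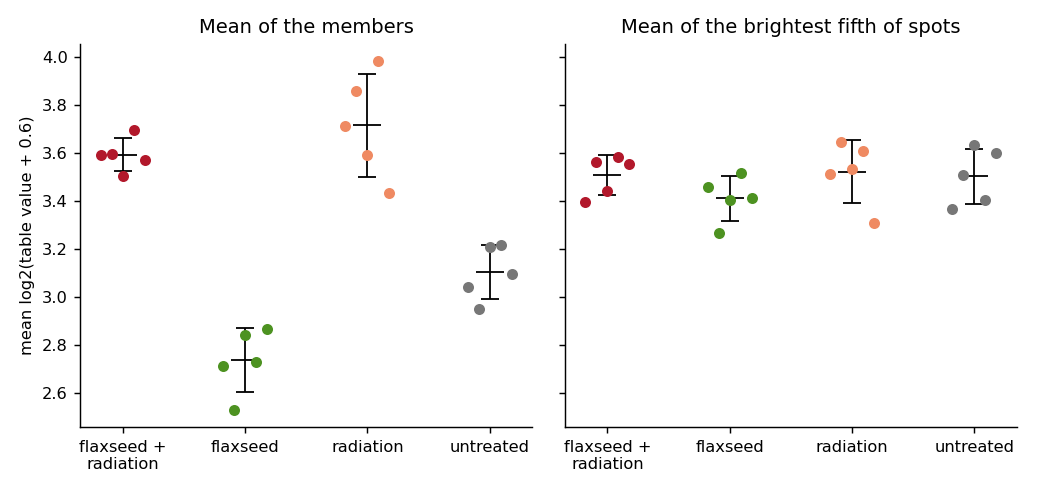
Mean log2 of table value plus 0.6 on each array, over the 82 members and over the 1920 brightest spots, with a point per array and the group mean and SD (n = 5). Over the members the flaxseed arrays (2.53 to 2.86) lie under the untreated arrays (2.95 to 3.22), and over the bright spots all arrays lie between 3.26 and 3.64.

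Most members ordered the 4 groups alike. In 61 of 82 the mean was lowest with flaxseed, then untreated, then with both treatments, and highest with radiation alone. This order was found in 818 of all 9600 spots and in 292 of the brightest. The rule itself puts flaxseed under both treatments, and untreated under radiation alone, in every member. The lowest mean was with flaxseed alone in 79 members, against 3167 of all spots and 917 of the brightest. Spots gene1569, gene3410 and gene8647 were lowest untreated. The highest mean was with radiation alone in 64 members, against 2455 of all spots and 494 of the brightest. It was with both treatments in 18 members, against 2436 and 471. Under the rule a member's lowest mean can only be flaxseed or untreated, and its highest only radiation or both treatments. Nothing is therefore read from these counts.

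Flaxseed alone was under untreated by a median difference of -0.33 (log2), against -0.005 over all spots and -0.113 over the 1920 brightest. It was beyond -0.5 in 20 members (24.4%, against 4.67% of all spots and 18.75% of the 1920 brightest) and at -1.32 in gene5063. Both treatments differed from radiation alone by a median of -0.13, against -0.003 over all spots and -0.013 over the brightest. Here 64 members were within 0.25 of 0 (78.0%, against 86.1% of all spots and 71.6% of the 1920 brightest). Both treatments differed from no treatment by a median of 0.49, against 0.009 over all spots and 0.027 over the brightest. This difference was above 0 in 81 members (98.8%, against 52.4% of all spots and 53.8% of the brightest), with gene0164 at -0.12. These comparisons share arrays with the rule, so no test is given.

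The effect of diet averaged over radiation, flaxseed minus no flaxseed, is built from the same 4 group means as the rule. It would be free of the choice of members only if all group means varied alike across spots, and they did not. Flaxseed alone was beyond 0.5 under untreated in 448 spots and above it in 227, against 74 and 59 spots for both treatments relative to radiation alone (table values). Choosing spots higher with both treatments than with flaxseed alone can thus take spots low with flaxseed, which lowers their diet effect. The members' diet effects are therefore given as a description. The fit was made with limma on all 9600 spots, on log2 scanner values after normexp background correction and quantile normalization, with p-values adjusted over all spots. On that scale the members' median was -0.17, with a range of -0.93 to 0.09, against 0.003 over all spots and -0.01 over the 1920 brightest. The estimate was below 0 in 72 members and above 0 in 10. Local background of the members changed the same way, by a median of -0.07 (log2, arrays centred), against 0.003 over all spots and -0.01 over the 1920 brightest, and its part in the diet effect was not tested.

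In that limma fit 1 of 82 members passed an adjusted p of 0.05, and it was lower with flaxseed. Of all spots, 0.0729% passed in either direction, 0.0521% as lower and 0.0208% as higher. At an unadjusted p under 0.05 there were 21 members (25.6%), all lower with flaxseed, where 4.82% of all spots were lower and 9.11% passed in either direction. Because the choice of members favours low flaxseed values, nothing is read from these counts. The members' 95% intervals reached a median of 0.32 to either side of the estimate, so for most of them an effect of the size of the median could not be told from 0.

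The member that passed was gene5063, at -0.93 ± 0.16 (log2, SE, 95% interval -1.26 to -0.60, limma adjusted p = 0.0423). Its limma-scale means were 8.42 ± 0.38 with both treatments and 9.01 ± 0.42 with radiation, and 7.08 ± 0.38 with flaxseed and 8.35 ± 0.32 untreated (SD, n = 5 each). Of the 10 flaxseed-fed arrays, 9 lay under the mean of the group without flaxseed at the same radiation state. The call is close to the threshold and was lost when any of 13 single arrays was left out, with a highest adjusted p of 0.113 over all settings. Its limma diet difference was -1.27 without radiation and -0.59 with it, and the rule used the same group means. As with the counts, nothing is read from this call.

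Spot gene6958 came next at -0.84 ± 0.22 (log2, SE, limma adjusted p = 0.235), lower in 9 of 10 flaxseed-fed arrays by the same count. It read 161.2, 77.5, 60.0, 115.3 and 67.7 (table value) with both treatments, against 124.3, 211.9, 109.5, 146.3 and 78.8 with radiation alone. Flaxseed alone gave 29.8, 21.5, 29.8, 48.6 and 56.3, against 72.4, 66.8, 151.5, 118.1 and 51.2 untreated. Both pairs of groups overlap.

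Spot gene0164 had -0.70 ± 0.24 (log2, SE, limma adjusted p = 0.378), lower in 10 of 10 arrays. It read 36.1, 22.4, 20.2, 42.5 and 27.0 with both treatments, against 81.3, 50.1, 44.4, 37.3 and 26.4 with radiation alone. Flaxseed alone gave 19.3, 6.29, 16.3, 28.8 and 27.8, against 27.8, 21.1, 28.1, 38.8 and 45.6 untreated. The groups overlap at both radiation states.

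At the other end were gene1574 at 0.09 ± 0.13, gene4308 at 0.07 ± 0.20 and gene8762 at 0.07 ± 0.18 (log2, SE), with limma adjusted p of 0.906, 0.953 and 0.945. Their 95% intervals ran from -0.19 to 0.37, from -0.34 to 0.49 and from -0.30 to 0.45. All of these intervals include 0. These spots were picked as the highest among members chosen on the same group means, so the intervals are a description only.

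**Figure D4:**
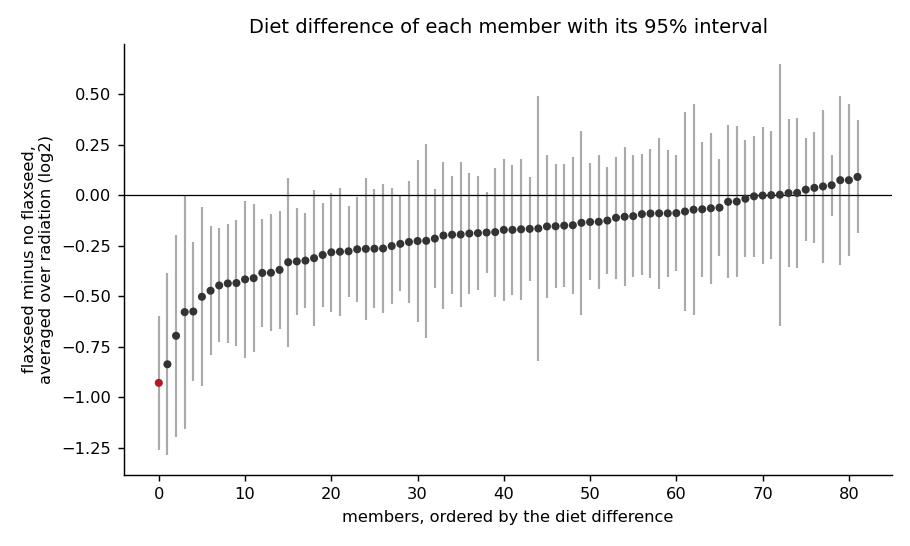
Effect of diet averaged over radiation for the 82 members, from limma (log2, flaxseed minus no flaxseed), in order of size, with bars for 95% intervals and gene5063 in red. The members run from -0.93 to 0.09, 72 of them lie below 0, and only gene5063 passed an adjusted p of 0.05. The rule used the same group means, so the effects are a description.

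Within groups, the members' median SD was 0.38 with both treatments, 0.34 with radiation, 0.33 with flaxseed and 0.38 untreated (log2), and for the 1920 brightest spots it was 0.36, 0.38, 0.34 and 0.35 in the same order. Members thus varied about as much as other bright spots. As a description over 20 arrays that share normalization, the mean correlation of deviations from group means over the 3321 pairs of members was 0.116, against 0.07 for the brightest spots and 0.003 for all. In 1101 pairs it was below 0. The closest pair, gene0735 and gene0738, had r = 0.88.

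Both spots of that pair lie in block 2, row 6, in columns 10 and 13 of the numbering. Spot gene0735 averaged 13.6 ± 4.08 with both treatments and 8.32 ± 2.38 with flaxseed, and 18.8 ± 5.02 with radiation and 12.1 ± 4.02 untreated (table value, SD, n = 5 each). Spot gene0738 averaged 15.9 ± 6.03 with both treatments and 7.99 ± 2.36 with flaxseed, and 16.8 ± 4.01 with radiation and 11.0 ± 3.36 untreated. Whether they carry related sequence could not be read.

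Local background moved with the members' signal. With arrays centred, it changed by a median of 0.29 on flaxseed and 0.26 without it (log2), above 0 in 74 and 75 of the 82 members. Over all spots the medians were -0.003 and -0.019, and over the 1920 brightest 0.015 and 0.007. Signal without background subtraction changed by 0.90 and 0.63, more than the background did. The part of the background in the result was not tested.

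Taking the spot numbers as 16 blocks of 24 rows and 25 columns assumes that they follow the order of printing. Every block held a member, and 2 rows did not. No member lay in columns 1 to 3 or 25, which hold 16.0% of all spots and 5.10% of the 1920 brightest, and column 10 held the most, 7. The part of position in the result was not tested.

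**Figure D5:**
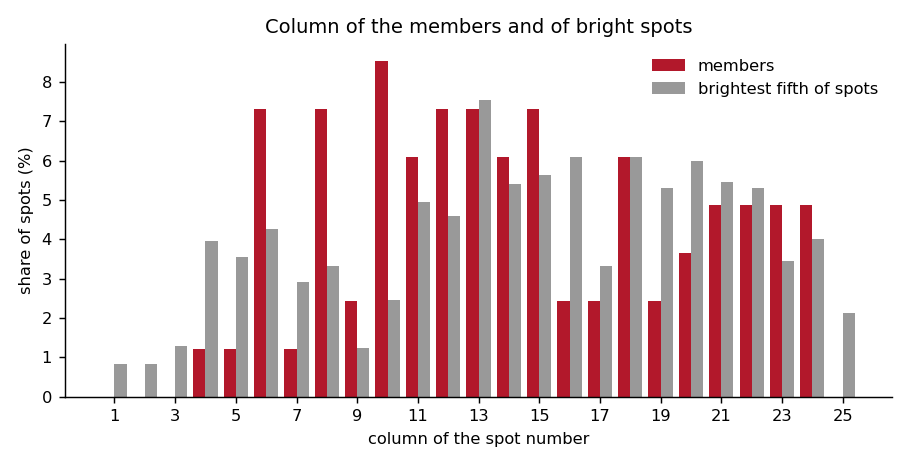
Share (%) of the members (red) and of the 1920 brightest spots (grey) in each column of the spot numbering. Columns 1 to 3 and 25 hold no member and 98 of the bright spots, and column 10 holds 7 members.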

How the data were processed

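Total RNA of 20 mouse lungs was measured on 1-channel 33P arrays, 1 per mouse. Per the file headers, the deposited scanner files give signal and local background intensity for 9600 spots. The authors' deposited table holds intensity values that, set against the scanner files, are signal after subtracting background, scaled so that the median spot of each array is at 1. This holds for 95.91% to 97.67% of spots per column (relative tolerance 0.001). The values that do not match are all 0.002. The sources used here give no software, scanner or control spots.

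Groups follow the treatment labels. Members and named spots were chosen with earlier results of these data known. Named spots are the 10 with the largest smaller change, the 3 highest and 3 lowest diet effects, any member called, the 3 brightest and 3 dimmest, the 3 just inside the threshold and neighbours in the numbering. Outside that list, gene8630 and gene8647 were described for the widest gaps between diets, and gene0735 and gene0738 as the closest pair. These were picked as extremes of these data, and gene4074 after its values were seen. The members' levels use the table, in log2 of the value (negative values set to 0) plus 0.6. Tests used scanner values, corrected by normexp (offset 50), quantile normalized and taken as log2, in 1 model of 4 groups with limma 3.58.1 in R 4.3.3 (16 residual degrees of freedom, 2.76 prior). P-values are two-sided, with Benjamini-Hochberg adjustment over the 9600 spots and a threshold of 0.05. The offset and the constant shrink changes of dim spots. The number of arrays limits the precision. The fit was tested on simulated data. Alternatives were other background corrections, normalizations, filters, constants and thresholds, and each array left out. No array pair held identical values.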

Additional observations from a re-analysis of the deposited data

Results flagged for a closer look

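Among 92 sets of 5 arrays (22 named members and the mean of all members, in each of 4 groups), 2 held an array far from the other 4, where chance gives about 1 in 20 sets. Spot gene4974 was at 2.60 on 1 untreated array and between 4.97 and 5.29 on the others (log2 of table value plus 0.6), a gap of 0.88 of the group's range. Spot gene1574 was at 3.02 on 1 untreated array and between 2.36 and 2.53 on the others, a gap of 0.735 of the range.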

How the results depend on the processing

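No paired analysis was possible because the labels number the mice 1 to 20 and the groups share no numbers. The number of members, 82, was 185 at a threshold of 0.4 and 33 at 0.6, and 57 to 135 with 1 array left out, the highest without radiation replicate 5 (table column). It was 104 and 55 with constants of 0.3 and 1.2. On the limma scale, 57 of the 82 members changed by more than 0.5 without flaxseed and 76 on flaxseed. The median diet effect stayed below 0 in all settings (-0.22 to -0.15). The 1 member called for diet was 0 with median scaling (gene5063 adjusted p = 0.0621) and 0 with cyclic loess (0.0531), and 0 to 1 with 1 array left out, 0 in 13 of 20 cases. They were untreated replicates 1, 2 and 4, flaxseed replicates 1 to 4, radiation replicates 2, 3 and 5, and flaxseed with radiation replicates 2, 3 and 5. These are numbered as in the scanner values, where radiation replicates 4 and 5 are exchanged against the table columns. The near-zero diet effects changed sign: gene7404 was -0.003 with the authors' table, -0.008 with array weights, and as low as -0.051 with 1 array left out (-0.029 without flaxseed with radiation replicate 1, highest 0.086). Spot gene8762 was -0.005 with array weights and -0.023 to 0.185 with 1 array left out. With 1 array left out gene4308 ran from -0.006 to 0.194 (-0.005 without flaxseed replicate 3) and gene4974 from -0.306 to 0.03. Causes were not tested.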
